A study of Mus musculus with 6 samples.

Results

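The E4.75 trophoblast of the mouse embryo was divided by its RNA for Cdh5 (VE-cadherin), the adhesion protein best known from the junctions of blood vessel endothelium. Cells were first kept where at least 1500 genes were detected and at most 15% of the counts were mitochondrial. A cell then counted as trophoblast where the summed counts of Tfap2c, Gata3, Rhox6, Rhox9, Phlda2 and Wnt7b reached 5 per 10000 counts of the cell, an endoderm sum (Cubn, Lrp2, Dab2, Amn) stayed under 10, and an epiblast sum (Pou5f1, Slc7a3, Pim2, L1td1) stayed below the trophoblast sum. The cells were thus chosen by their measured levels of these 14 genes and of Cdh5, and those levels are not results. The limits gave 401 of the 2548 cells kept at E4.75. Of these, 218 had 2 or more unique molecular identifiers (UMIs, single counted RNA molecules) of Cdh5 and 150 had none, and the 33 cells with exactly 1 belonged to neither group. The 368 cells compared stand among 21856 cells kept in the whole series.

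The series holds 6 libraries from droplet-based 3' single-cell RNA sequencing, 1 for each of 6 embryonic stages from E3.5 to E5.5. Embryos came from B6SJLF1/J mothers and B6CBAF1/J fathers, no allele or agent separates the groups, and both Cdh5 groups come from the same tube of dissociated E4.75 cells. Embryos from E4.75 to E5.25 were taken by dissection from uteri of 7-week-old females after natural mating, and their cells were not filtered. E5.5 embryos were dissected in the same way but their cells passed a 20 µm filter, as did those of the E3.5 and E4.5 embryos, which were flushed from superovulated females of 4 weeks. A stage is represented by a single library of pooled embryos, so the values below carry counting error only and no test between the groups was made.

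As background, the outer layer of the mouse blastocyst has a polar side that overlies the epiblast and a mural side that surrounds the cavity. Polar trophoblast keeps dividing under FGF from the epiblast and forms extraembryonic ectoderm and ectoplacental cone, with Cdx2, Elf5, Eomes and Esrrb as its stem-type factors. Mural trophoblast leaves mitosis, copies its genome without dividing, becomes primary giant cells, and attaches to and invades the uterus. Giant cells are known for Hand1 and Gata2, which drive their programme and their placental hormones, and for vessel-type adhesion molecules. Position in the embryo was not recorded for these cells, so polar and mural are not used for the groups, which are called Cdh5-positive (2 or more UMIs) and Cdh5-negative (0 UMIs).

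The groups differed in depth. Cdh5-positive cells had a median of 47806.5 UMIs and 6598.5 detected genes, against 37513 UMIs and 5968.5 genes in Cdh5-negative cells. Their summed counts were 10925509 and 6402717 UMIs. Mitochondrial shares were close, at medians of 3.78% in Cdh5-positive and 3.82% in Cdh5-negative cells. Summed UMIs of a group were expressed as CPM, counts per 1000000 counts of that group, with exact 95% Poisson intervals in square brackets that cover counting error only and not the spread between embryos. Because a deeper cell has more chances to show a UMI, shares of cells with a UMI are given after each cell was thinned to 10000 UMIs, which left out 0 Cdh5-positive and 20 Cdh5-negative cells.

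A set of 15 Cdh5-negative cells (10.0% of 150) stood apart from the rest. They were found from 8 genes that lead them (Prap1, Mecom, Nckap5, Crct1, Efhd1, Olfm1, Pax8 and Ihh), at 50 or more counts per 10000. Their median depth was 6532 UMIs, from 3705 to 11139, and their median mitochondrial share was 0.467%. Most of them were thus under 10000 UMIs and are not part of the thinned shares. No Cdh5-positive cell was among them. They had 0 counts of Tfap2c, Gata3, Rhox6, Rhox9 and Phlda2, and of Elf5, Cdx2 and Hand1, and had passed the trophoblast limit through 86 counts of Wnt7b. Prap1, a secreted proline-rich acidic protein, stood at 7665 CPM [7133, 8226] in them, and Ihh, a hedgehog ligand, at 766 CPM. Among markers listed for uterine epithelium they had 8 counts of Muc1, 1 of Lcn2 and 0 of Ltf and Wnt7a. They belong to the Cdh5-negative group by the rule and were kept there, and a value whose call they change is also given without them. Similar cells numbered 7 at E5.0 and 10 at E5.25, all of them Cdh5-negative. Libraries shared few barcodes: E4.75 had 0, 2, 4, 2 and 12 in common with the other 5 in order of stage, and 2 of these barcodes were E4.75 trophoblast cells.

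The first question was whether the stem-type factors named with this comparison divide along Cdh5. Elf5, an ETS factor of trophoblast stem cells and extraembryonic ectoderm, hardly did. It stood at 269 CPM [260, 279] in Cdh5-positive and 308 CPM [294, 322] in Cdh5-negative cells, a log2 ratio (of CPM + 10, here and below) of −0.19. Single cells ran from 1.22 through a median of 2.60 to 4.30 counts per 10000 at the 10th, 50th and 90th percentiles of Cdh5-positive cells, against 0, 2.88 and 4.57 in Cdh5-negative cells. Without the 15 cells that stand apart, which had no Elf5, the Cdh5-negative values were 1.52, 3.11 and 4.65, and the ranges between these percentiles overlapped with or without them. An Elf5 UMI was found after thinning in 87.2% of Cdh5-positive and 92.3% of Cdh5-negative cells, and in 2.82% of epiblast-scored and 4.93% of endoderm-scored cells of the same library. Eomes, the T-box factor needed for trophoblast, was 382 CPM [370, 394] and 450 CPM [434, 467] in Cdh5-positive and Cdh5-negative cells, a log2 ratio of −0.23. Fgfr2, the receptor for the epiblast's FGF signal, was 226 and 293 CPM, a log2 ratio of −0.36.

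Cdx2, the homeobox factor that founds the trophectoderm, differed more. It stood at 22.7 CPM [20.0, 25.7] in Cdh5-positive and 135 CPM [126, 144] in Cdh5-negative cells, a log2 ratio of −2.15, and was 5.94-fold lower in the Cdh5-positive group. The median cell had 0 counts of Cdx2 in the Cdh5-positive group and 1.17 per 10000 in the Cdh5-negative group, while the 90th percentiles were 0.67 and 2.33. A Cdx2 UMI was found after thinning in 11.01% [7.18, 15.9] of Cdh5-positive cells and 70.8% [62.2, 78.4] of Cdh5-negative cells, with exact binomial intervals, against 0.470% of epiblast-scored and 2.20% of endoderm-scored cells. Before thinning these shares were 27.1% and 80.0%, and the Cdh5-negative share was 88.9% without the 15 cells. After thinning, most Cdh5-positive cells showed an Elf5 UMI without a Cdx2 UMI: 77.5% of them, against 26.2% of Cdh5-negative cells. UMIs of both genes were seen after thinning in 9.63% and 66.2%.

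A gene was counted as called where its CPM differed at least 2-fold between the groups and reached 10 CPM in either. Over all 8114 genes at that level, apart from the 15 genes of the rule, 460 were called higher (5.67%) and 486 lower (5.99%) in Cdh5-positive cells, and the median log2 ratio was 0.03. Leaving out the 15 cells that stand apart gave 507 of 8029 higher (6.31%) and 390 lower (4.86%), of which 453 and 386 were called either way. Of 13 stem-type factors at 10 CPM, 6 were lower and 0 higher, with a median log2 ratio of −0.36. Id2, an inhibitor of basic helix-loop-helix factors, was 471 CPM [458, 484] in Cdh5-positive and 1400 CPM [1371, 1429] in Cdh5-negative cells. Esrrb, the orphan nuclear receptor of trophoblast stem cells, was 10.3 and 59.2 CPM. Sox21 and the let-7 inhibitor Lin28a were lower as well, at 28.0 and 68.7 CPM and at 7.23 and 19.8 CPM. Tead4 (177 and 163 CPM) and Ddah1 (1547 and 1487 CPM) were near level, and Ets2 (162 and 102 CPM) and the chromatin organiser Satb1 (966 and 617 CPM) lay on the higher side without reaching 2-fold. Without the 15 cells the same counts, 6 lower and 0 higher, were found.

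**Figure D1:**
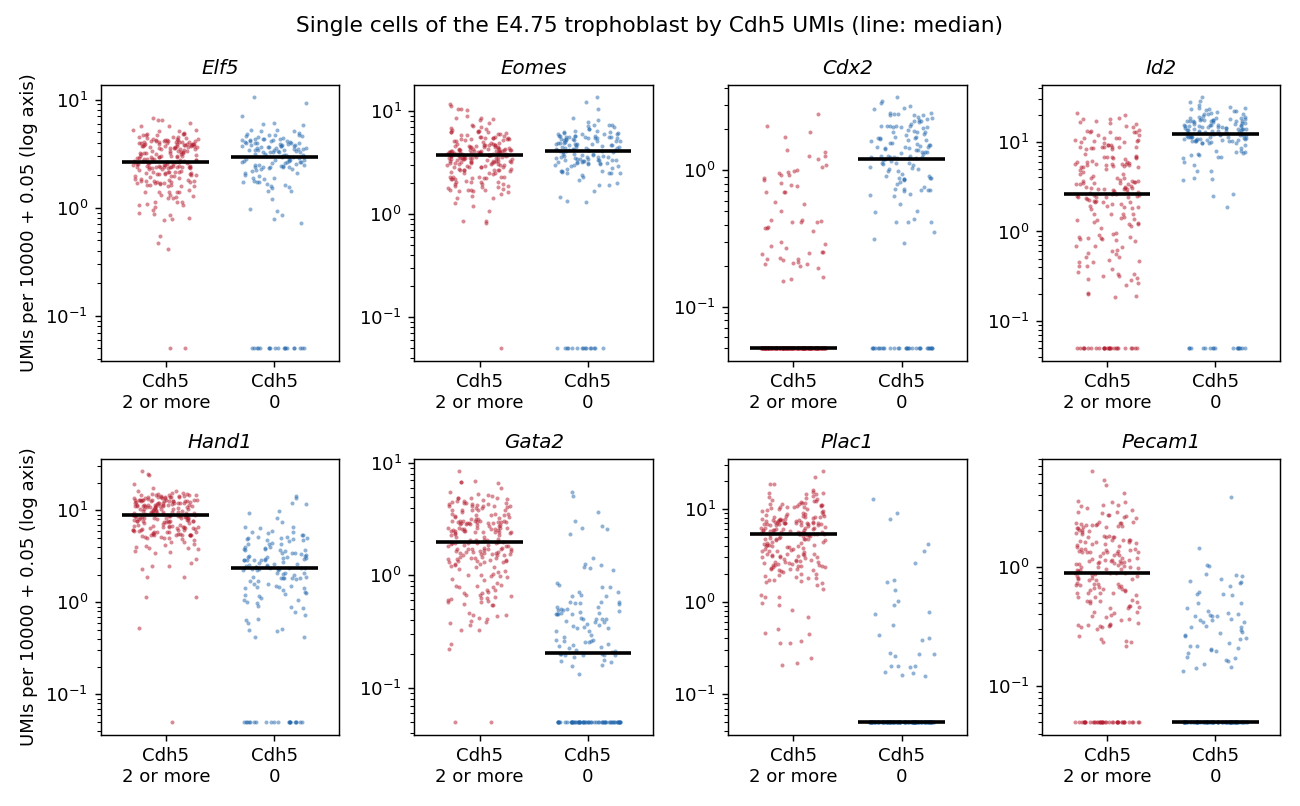
Counts per 10000 UMIs plus 0.05 (log axis) of 8 genes in each of the 218 Cdh5-positive cells (red, left) and 150 Cdh5-negative cells (blue, right) of the E4.75 trophoblast, with the median as a bar. Elf5 and Eomes overlap between the groups, the median cell has no Cdx2 UMI in the Cdh5-positive group, and Hand1, Gata2, Plac1 and Pecam1 sit higher there.

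Giant cell genes were mostly higher in Cdh5-positive cells: 7 of the 10 members at 10 CPM were called higher and 0 lower, with a median log2 ratio of 1.80, against 5.67% of all genes called higher. The 7 include Prl3d1, Prl3d2 and Prl3d3, near-identical copies that may share reads, so they do not count as 7 separate signals. Hand1, the helix-loop-helix factor that giant cell formation needs, was 933 CPM [915, 952] in Cdh5-positive and 276 CPM [263, 289] in Cdh5-negative cells, 3.39-fold higher. Per cell it ran from 4.49 through a median of 8.85 to 13.9 per 10000 at the 10th, 50th and 90th percentiles in the Cdh5-positive group, against 0, 2.29 and 5.32 in the Cdh5-negative group, or 0.638, 2.41 and 5.68 without the 15 cells. The 90th percentile of Cdh5-negative cells thus lay under the 25th percentile of Cdh5-positive cells (6.13) with or without them. Gata2, a GATA factor of giant cells that acts on their hormone genes, was 213 CPM [204, 221] and 30.8 CPM [26.6, 35.4], 6.91-fold higher. Nr6a1, the nuclear receptor GCNF, was 206 CPM in Cdh5-positive and 48.6 CPM in Cdh5-negative cells.

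Plac1, an X-linked gene of the trophoblast, had the highest log2 ratio of all named genes, 4.28. It was 518 CPM [504, 532] in Cdh5-positive and 17.2 CPM [14.1, 20.7] in Cdh5-negative cells, and every one of the 218 Cdh5-positive cells had a UMI of it (100%), against 19.3% of the Cdh5-negative cells. After thinning these shares were 94.0% and 10.0%, against 5.41% of epiblast-scored and 22.5% of endoderm-scored cells. The placental lactogen Prl3d1, a hormone of primary giant cells, was 61.0 CPM [56.5, 65.9] in Cdh5-positive cells and rested on a single UMI in Cdh5-negative cells (0.156 CPM). It was confined to few cells: 20.6% of Cdh5-positive cells had a UMI before thinning and 12.4% after. The median Cdh5-positive cell had 0 and the highest had 48.6 per 10000. Prl3d2 (55.2 and 0.469 CPM) and Prl3d3 (226 UMIs and 0) went with it, but the 3 genes are near-identical copies and reads may be divided between them. Prl2c2, Ctsq, Prl3b1, Cts3 and Cts6, markers of later or other giant cells, had 0 UMIs in both groups. Bhlhe40 (8.79 and 10.9 CPM), Hopx (57.3 and 64.7 CPM) and Lifr (22.4 and 23.9 CPM) did not differ 2-fold.

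The promoters of Plac1, Cdx2 and Elf5 are shown because these genes stand for the 3 patterns found, namely higher, lower and near level in Cdh5-positive cells. The sequences are RefSeq's on GRCm38.p6, 5′ to 3′ on the gene's strand around a listed start site, at chrX:53240061-53240360 (minus strand), chr5:147307200-147307499 (minus strand) and chr2:103411848-103412147 (plus strand). Plac1 and Elf5 had 2 entries each, of which the first is shown. In GENCODE M21 the Elf5 gene starts at 103411688, upstream of its window. Capitals mark matches, on either strand, to 5 short motifs: the GATA factor motif AGATAA, the TEAD factor motif GGAATG, the AP-2 factor motif GCCNNNGGC, the ETS factor motif CCGGAA and the AP-1 motif TGANTCA.
Plac1: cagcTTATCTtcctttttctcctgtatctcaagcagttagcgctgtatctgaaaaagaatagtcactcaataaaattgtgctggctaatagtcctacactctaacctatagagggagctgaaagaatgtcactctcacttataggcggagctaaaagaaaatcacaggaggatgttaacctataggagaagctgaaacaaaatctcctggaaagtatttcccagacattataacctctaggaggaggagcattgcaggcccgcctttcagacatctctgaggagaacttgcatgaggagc
Cdx2: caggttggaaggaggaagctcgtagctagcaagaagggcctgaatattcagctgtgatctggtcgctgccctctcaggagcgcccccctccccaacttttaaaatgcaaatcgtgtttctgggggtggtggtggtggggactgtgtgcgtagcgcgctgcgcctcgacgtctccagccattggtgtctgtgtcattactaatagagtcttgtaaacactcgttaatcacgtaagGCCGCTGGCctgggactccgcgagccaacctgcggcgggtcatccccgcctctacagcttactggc
Elf5: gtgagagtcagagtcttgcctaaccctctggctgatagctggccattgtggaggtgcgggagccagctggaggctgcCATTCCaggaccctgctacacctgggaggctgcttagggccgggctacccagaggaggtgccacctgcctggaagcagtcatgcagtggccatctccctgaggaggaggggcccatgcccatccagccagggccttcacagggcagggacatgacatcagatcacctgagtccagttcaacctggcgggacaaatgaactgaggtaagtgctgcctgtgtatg
The Plac1 window held 1 GATA match, the Cdx2 window 1 AP-2 match and the Elf5 window 1 TEAD match, and none overlapped another motif. Over all 27025 promoters of this length, 11.4% held the GATA, 16.5% the AP-2 and 14.6% the TEAD motif. A match is only a match of letters.

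Ectoplacental cone genes, which mark the polar side's outgrowth toward the uterus, gave 3 higher and 1 lower of 7, against 5.67% and 5.99% of all genes. Their median log2 ratio was 0.73, but −0.11 with a trophoblast sum of at least 10, which left 118 Cdh5-positive and 20 Cdh5-negative cells. Without the 15 cells that stand apart the median was 0.95, with 3 of 6 members higher and 0 lower. Ascl2, the helix-loop-helix factor of the cone, was 35.0 CPM [31.5, 38.7] in Cdh5-positive and 7.97 CPM [5.93, 10.5] in Cdh5-negative cells. The AP-1 member Fosl1, which acts in giant cell invasion, was 92.7 and 20.1 CPM, and the DNA-binding protein Arid3a was 47.0 and 16.7 CPM. Tpbpa and Tpbpb, the classical later cone markers, had 0 UMIs in both groups. The lower gene, the connexin Gjb2, was 4.76 and 64.7 CPM, but 412 of its 414 Cdh5-negative UMIs lay in the 15 cells that stand apart and it was 0.317 CPM without them.

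Of the genes shared with blood vessel endothelium, 3 of 6 members at 10 CPM were higher and 1 lower, against 5.67% and 5.99% of all genes, and several defining ones were at or near 0. Pecam1, an adhesion protein of endothelial junctions and platelets, was 104 CPM [98.1, 110] in Cdh5-positive and 14.2 CPM [11.4, 17.5] in Cdh5-negative cells. After thinning a Pecam1 UMI was found in 55.5% of Cdh5-positive and 15.4% of Cdh5-negative cells, against 12.6% of epiblast-scored and 8.54% of endoderm-scored cells. The anticoagulant receptor thrombomodulin (Thbd) was 18.4 and 0.312 CPM, and the junction protein Esam 15.3 and 0.469 CPM. The VEGF receptor Kdr had 61 UMIs in Cdh5-positive cells and 0 in Cdh5-negative cells, and Eng, a TGF-beta co-receptor, was lower at 4.03 and 13.3 CPM. Cldn5, Emcn and Sox18 had 0 UMIs in both groups, Erg had 1 in each, and Plvap had 2 and 4. Nppb, the precursor of a natriuretic peptide that relaxes vessels, was 118 CPM [112, 125] in Cdh5-positive and 2.81 CPM [1.67, 4.44] in Cdh5-negative cells. Igf2 (85.9 and 62.3 CPM) and Vegfa (17.5 and 16.9 CPM) did not differ 2-fold.

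Adhesion receptors and matrix genes gave 5 higher and 3 lower of 16, against 5.67% and 5.99% of all genes. Their median log2 ratio was 0.44, but −0.55 with a trophoblast sum of at least 10 and 0.53 without the 15 cells that stand apart. Integrins are the receptors by which cells hold to extracellular matrix, and some of their chains were called higher and another lower. Itgb3, the beta chain that pairs with integrin alpha v, was 85.0 CPM in Cdh5-positive and 9.37 CPM in Cdh5-negative cells, 9.07-fold higher. The collagen and laminin receptor chain Itga1 was 54.6 and 1.25 CPM, Itga7 was 147 and 58.4 CPM, and Itga2 had 130 UMIs and 0. The basement membrane proteoglycan perlecan (Hspg2) was 48.3 CPM in Cdh5-positive and 6.56 CPM in Cdh5-negative cells. Lower were the laminin chain Lama5 (9.24 and 59.8 CPM), the matricellular protein Sparc (39.2 and 189 CPM) and Itgb4 (6.04 and 17.3 CPM). Without the 15 cells Itgb4 was 9.52 CPM in the Cdh5-negative group and no longer counted, and 7 of 15 members were higher and 2 lower, with Itgav (151 against 57.4 CPM) and Lama1 (16.7 against 6.51 CPM) now among the higher ones. The urokinase Plau (19.4 and 0.625 CPM), the protease inhibitor Serpinb6b (74.3 and 4.53 CPM) and Timp1 (19.8 and 3.12 CPM) were the 3 higher of 10 proteases and inhibitors, and 0 were lower, with 4 and 0 without the 15 cells. Among actin and invasion genes, Cdc42ep3, an effector of the GTPase Cdc42, was 140 and 16.2 CPM, and its relative Cdc42ep5 was 7.32 and 25.5 CPM.

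Of 23 keratins and junction proteins, 2 were higher and 3 lower, against 5.67% and 5.99% of all genes, and their log2 ratios ran from −1.15 to 2.06. Krt19 was 223 CPM in Cdh5-positive and 45.9 CPM in Cdh5-negative cells, 4.85-fold higher, while Krt8 (775 and 502 CPM) and Krt18 (658 and 926 CPM) did not reach 2-fold. The desmosome protein Pkp2 was the other higher member, at 107 and 45.9 CPM. The adhesion molecule Epcam was 356 and 805 CPM, the polarity protein Pard6b 13.7 and 41.2 CPM and the claudin Cldn6 15.6 and 32.0 CPM. E-cadherin (Cdh1) was 363 and 466 CPM. Of the sodium pump and water channel genes that fill the blastocyst cavity, the pump's beta subunit Atp1b1 was 280 and 127 CPM, and the other 5 measured members were not called.

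**Figure D2:**
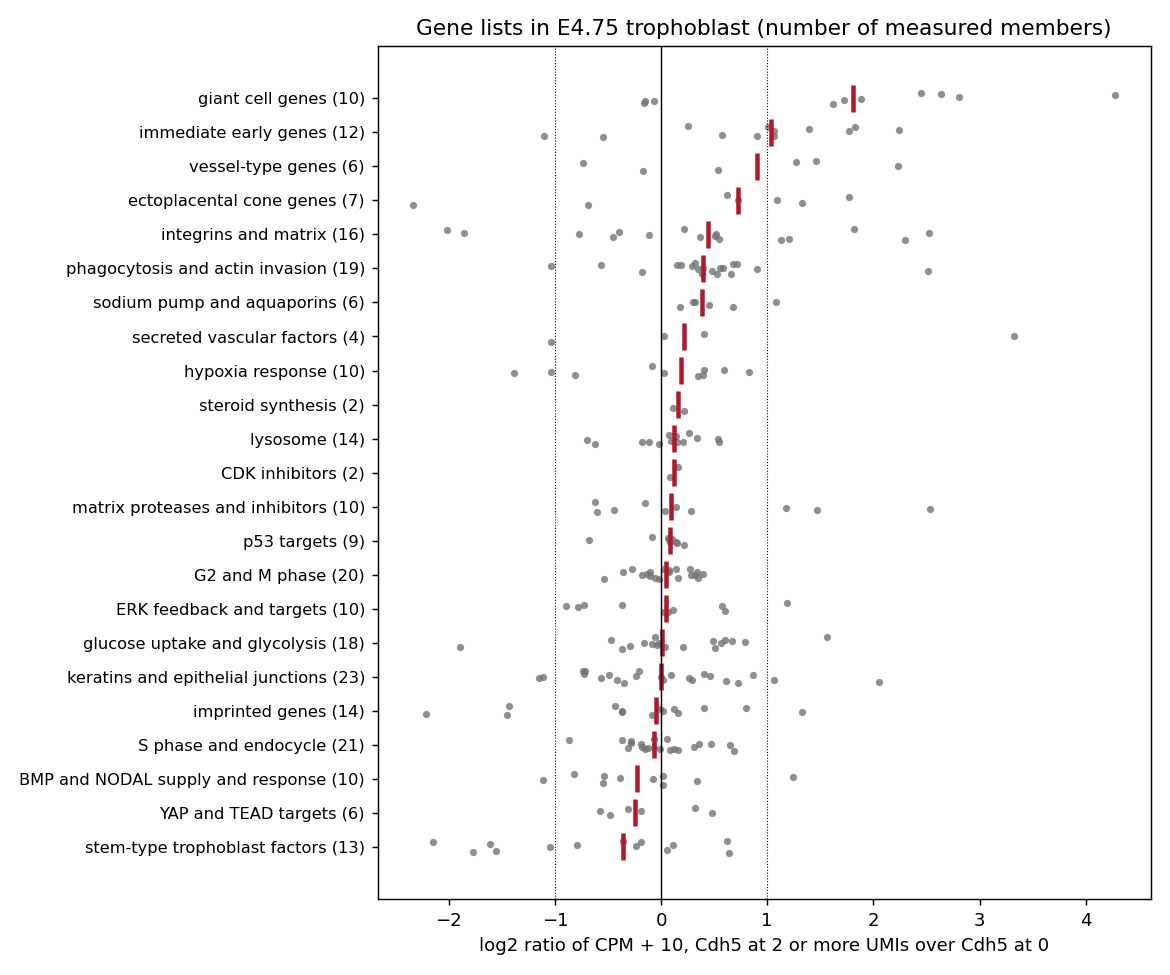
Log2 ratio of CPM + 10 (horizontal axis, Cdh5-positive over Cdh5-negative) for each member at 10 CPM of 23 gene lists (grey points), with the list median as a red bar and dotted lines at 1 and −1. Giant cell genes have the highest median, 1.80, and stem-type factors the lowest, −0.36.

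Immediate early genes, which cells switch on within minutes and which handling and dissociation can raise, differed between the Cdh5 groups. Of 12 members, 9 were higher and 2 lower in Cdh5-positive cells, against 5.67% and 5.99% of all genes, at a median log2 ratio of 1.04. The median was 0.38 with each cell weighted equally, 0.44 with a trophoblast sum of at least 10 and 1.26 without the 15 cells. Fos was 442 CPM [429, 454] in Cdh5-positive and 85.6 CPM [78.6, 93.1] in Cdh5-negative cells, Fosb 86.2 and 17.2 CPM, Junb 256 and 67.9 CPM, and Klf6 331 and 120 CPM. The 2 lower members were Nr4a1 (5.13 and 12.0 CPM) and Atf3 (3.30 and 18.6 CPM), of which Atf3 was 9.84 CPM without the 15 cells and no longer counted. The part of these genes in the other differences was not tested. Of 10 feedback and target genes of ERK signalling, 2 were higher and 2 lower, against 5.67% and 5.99% of all genes, at a median log2 ratio of 0.05. The lower ones were the feedback inhibitors Spry1 (3.30 and 14.7 CPM) and Spry2 (20.2 and 42.0 CPM). The higher ones were the ERK targets Myc (72.6 and 26.4 CPM) and Egr1 (15.4 and 7.03 CPM), and Dusp6 was 44.8 and 42.3 CPM. In the BMP and NODAL list the proprotein convertase Furin, which matures NODAL and BMP ligands, was 78.3 CPM in Cdh5-positive and 27.3 CPM in Cdh5-negative cells. The BMP inhibitor Smad6 was 26.2 and 67.9 CPM, and Bmp4, a ligand of extraembryonic ectoderm, was 85.8 and 129 CPM.

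The single genes with the largest differences were named by rule, the 15 highest and 15 lowest log2 ratios among genes at 50 CPM and 2-fold, with limits on levels in the other lineages. After Plac1 came the cytokine Il24, at 192 CPM [184, 201] in Cdh5-positive and 3.90 CPM [2.53, 5.76] in Cdh5-negative cells. Before thinning a UMI of Il24 was found in 83.5% of Cdh5-positive and 8.67% of Cdh5-negative cells, and after thinning in 61.9% and 3.08%. Psg29, one of the pregnancy-specific glycoproteins, a multigene family whose reads may be shared, was 77.5 and 0.625 CPM. The microtubule-associated protein Map1b was 148 and 9.37 CPM, the heparan sulfate proteoglycan Sdc1 128 and 8.90 CPM, and the junctional adhesion molecule Jam3 96.1 and 5.78 CPM. The actin regulators Shtn1 (196 and 18.9 CPM), Phactr1 (119 and 9.21 CPM) and Nhs (269 and 32.0 CPM) and the semaphorin Sema4c (88.9 and 4.37 CPM) were higher too. Oaf was 78.1 and 2.03 CPM and Plekha6 117 and 9.06 CPM, and Nppb and Prl3d1 were named by the same rule.

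On the lower side, the metal-binding metallothionein Mt1 was 150 CPM [143, 158] in Cdh5-positive and 1008 CPM [984, 1033] in Cdh5-negative cells, and its neighbour Mt2 was 133 and 727 CPM. Mt1 stood at 862 CPM in the Cdh5-negative group without the 15 cells. Inpp1, an inositol phosphatase, was 8.79 and 118 CPM, 13.4-fold lower in Cdh5-positive cells, and was found after thinning in 4.13% of them and 67.7% of Cdh5-negative cells. The fatty acid binding protein Fabp5 was 38.3 and 231 CPM, the carbonic anhydrase Car2 15.1 and 118 CPM, and adenylate kinase Ak1 5.67 and 60.3 CPM. The apical constriction protein Shroom3 (60.0 and 300 CPM), the junction protein and virus receptor Cxadr (27.1 and 144 CPM), the actin-binding neurabin Ppp1r9a (17.9 and 150 CPM) and the adaptor Nck2 (12.4 and 78.2 CPM) were lower too. Wdr72 was 42.9 and 199 CPM. Meg3 and Rian, non-coding RNAs expressed from the maternal copy of 1 imprinted domain on chromosome 12, were 76.6 and 391 CPM and 28.2 and 157 CPM. Cyp26a1, which degrades retinoic acid, was 4.48 and 60.0 CPM, but 286 of its 384 Cdh5-negative UMIs lay in the 15 cells, and it was 15.6 CPM without them, still 3.47-fold lower in Cdh5-positive cells. Its log2 ratio was −2.27, against −0.82 without the 15 cells, −0.94 after thinning and −0.51 where Cdh5 was called after thinning. Thinning itself leaves out most of the 15 cells, whose median depth was 6532 UMIs, so these values are not separate from leaving them out.

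Some genes of the lower set were also high in other lineages of the library. Mt1 was 961 CPM in epiblast-scored and 657 CPM in endoderm-scored cells, Car2 145 and 115 CPM, and Meg3 460 and 742 CPM. Inpp1 (3.40 and 3.75 CPM), Wdr72 (2.11 and 4.84 CPM), and Cdx2 (1.97 and 4.49 CPM) were low in both. Of 5 epiblast markers outside the rule, Dppa4 was 34.7 CPM in Cdh5-positive and 96.2 CPM in Cdh5-negative cells and Utf1 131 and 249 CPM, while Nanog had 1 UMI and 0, and Fgf4 5 and 2. All 7 endoderm markers outside the rule were under 7 CPM in both groups. The part of other lineages' RNA in these differences was not tested.

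**Figure D3:**
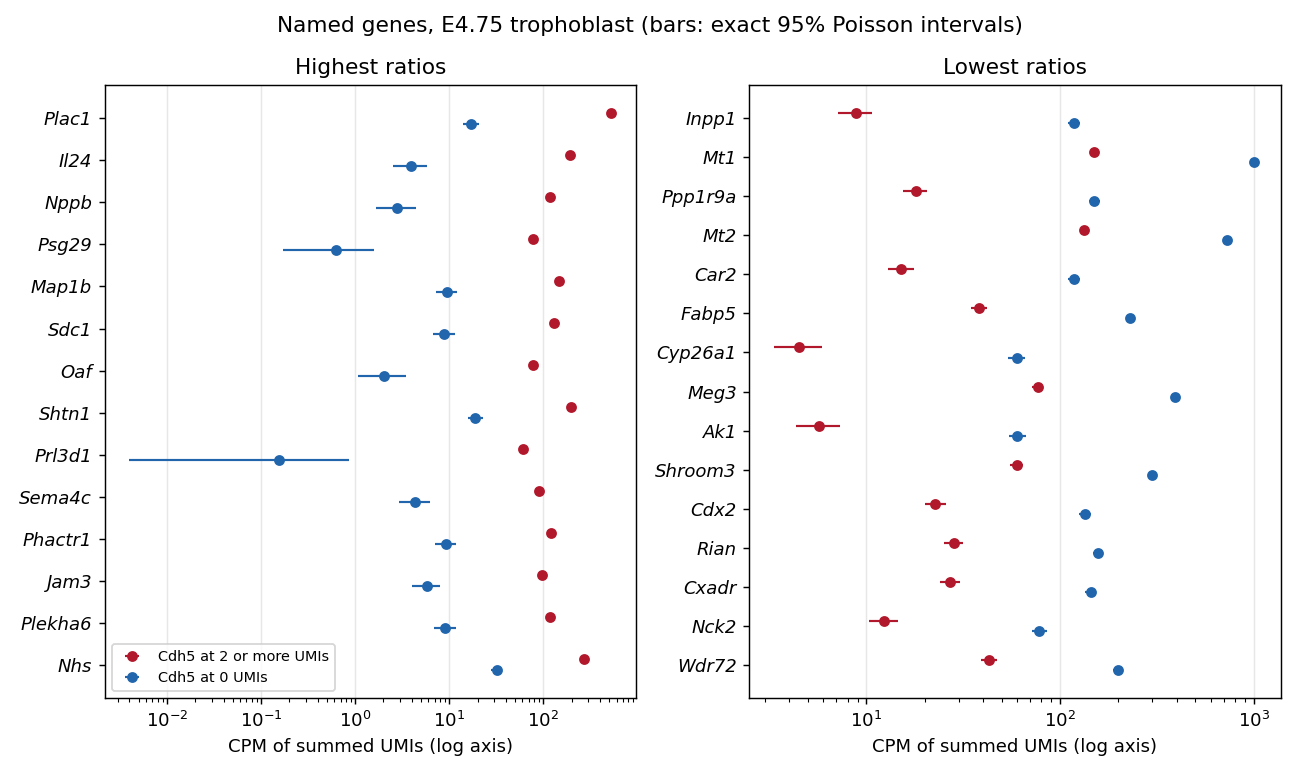
CPM (log axis) of 14 of the 15 named higher (left) and the 15 named lower genes (right) in Cdh5-positive (red) and Cdh5-negative (blue) E4.75 trophoblast, with exact 95% Poisson intervals. For Prl3d1 the Cdh5-negative value rests on 1 UMI, and the Cyp26a1 value in that group falls to 15.6 CPM without the 15 cells that stand apart.

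Levels were also followed along the Cdh5 count itself, in cells with 0, 1, 2 to 3, 4 to 7, 8 to 15 and 16 or more Cdh5 UMIs (150, 33, 30, 54, 55 and 79 cells). Median depths were 37513, 31697, 29890, 35205, 37866 and 60806 UMIs, so the last bin was deeper than the others. Cdx2 was 135, 109, 60.7, 40.4, 13.9 and 8.98 CPM in these bins, lower in each than in the one before. Id2 went the same way, at 1400, 876, 804, 764, 455 and 251 CPM, as did Esrrb, at 59.2, 48.5, 26.5, 17.4, 8.82 and 3.47 CPM. Elf5 was 308, 319, 286, 316, 285 and 234 CPM, with no step over 1.5-fold. Hand1 was 276, 556, 676, 834, 930 and 1047 CPM, and Gata2 30.8, 72.4, 126, 148, 198 and 273 CPM, higher in each bin. Cells with a single Cdh5 UMI thus had Plac1 at 218 CPM, between the 17.2 CPM of Cdh5-negative cells and the 335 CPM of cells with 2 to 3. Prl3d1 was 0.156, 0.746, 0, 7.27, 29.0 and 118 CPM, highest in the last and deepest bin. Ascl2 showed no such order, at 7.97, 23.1, 35.1, 27.5, 47.1 and 32.8 CPM.

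Around the limit, the 16 cells with exactly 2 Cdh5 UMIs had 86.3 CPM of Cdx2, 657 of Hand1, 91.4 of Gata2 and 254 of Elf5, against 109, 556, 72.4 and 319 CPM in the 33 cells with exactly 1. At the trophoblast limit, 55 cells lay from 5 to under 6 per 10000 inside it and 39 from 4 to under 5 outside. UMIs of Cdx2 and Hand1 were seen together after thinning in 10.6% of Cdh5-positive cells, 42.9% of the 28 remaining cells with 1 Cdh5 UMI, and 56.9% of Cdh5-negative cells. For Elf5 and Gata2 together these shares were 71.1%, 60.7% and 22.3%.

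**Figure D4:**
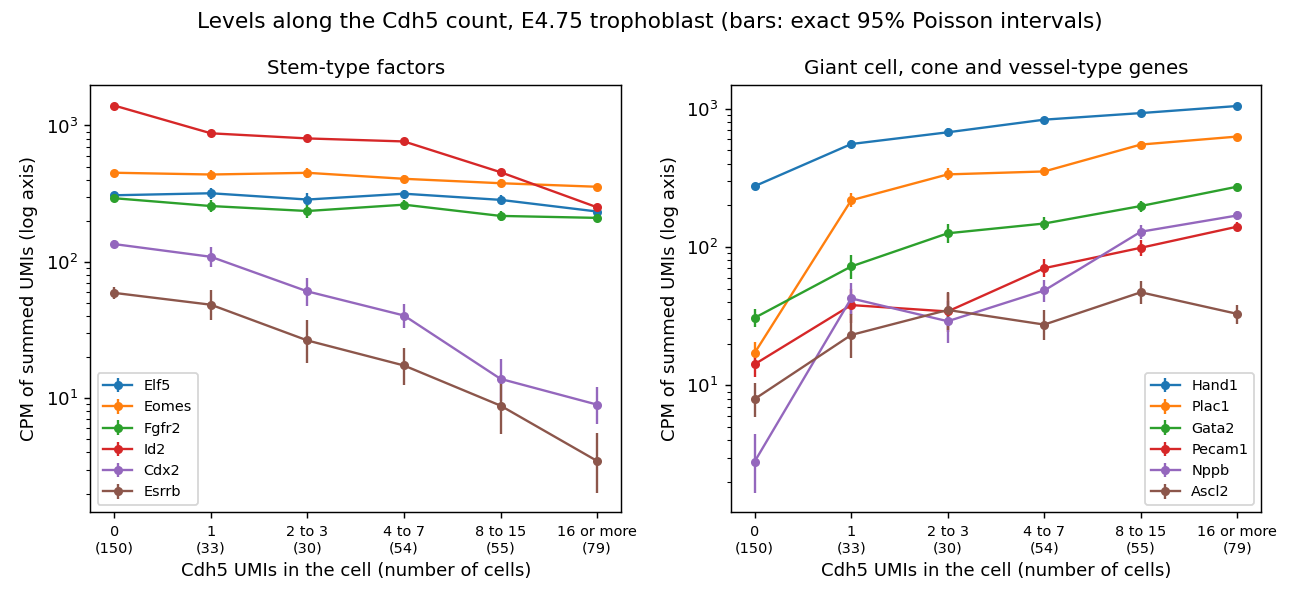
CPM (log axis) of 6 stem-type (left) and 6 giant cell, cone and vessel-type genes (right) by the number of Cdh5 UMIs in the cell (horizontal axis, number of cells in brackets), with exact 95% Poisson intervals. Cdx2, Id2 and Esrrb are lower in every further bin, Elf5 stays between 234 and 319 CPM, and Hand1 and Gata2 are higher in every further bin.

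The same rule was applied to the other libraries, which share no cells with E4.75 but differ in stage and, for E4.5 and E5.5, in handling. Cdh5 had 0 UMIs in the 27 trophoblast cells of E3.5, which allows a share of cells with a UMI of up to 11.1% (3 counts in 27 cells). With each cell thinned to 5000 UMIs, a Cdh5 UMI was found in 30.3% [23.6, 37.7] of E4.5 trophoblast cells and 40.2% [35.3, 45.2] of those at E4.75. The shares of the 3 later libraries were 27.6%, 31.2% and 33.5%, and in the last, E5.5, 940 of 2297 cells were too shallow. From E4.5 on, the shares unthinned were 49.2%, 62.6%, 38.0%, 40.5% and 37.0%. Over the libraries from E4.5 on, thinned shares were at most 1.78% in epiblast-scored and 6.76% in endoderm-scored cells.

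All 15 named higher and all 15 named lower genes of E4.75 had the same sign in each of the 4 other libraries that had enough cells. At E4.5 13 higher and 14 lower ones also passed 2-fold, where 9.0% of all genes were called higher and 9.42% lower. At E5.0, E5.25 and E5.5 all 15 of both passed, with backgrounds of 6.99%, 7.25% and 6.38% higher and 5.91%, 6.35% and 5.59% lower. The 3 named genes short of 2-fold at E4.5 were Nhs and Shtn1, at log2 ratios of 0.30 and 0.65 there, and Cyp26a1, at −0.09. Of genes measured at both stages, E4.75 and E5.0 shared 344 higher calls, which are 83.9% of the 410 at E4.75 and 66.7% of the 516 at E5.0. With E4.5 they shared 249, which are 59.1% of 421 at E4.75 and 54.4% of 458 at E4.5.

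Stage by stage, Cdx2 was 2.11, 22.7, 4.77, 5.58 and 8.97 CPM in Cdh5-positive trophoblast of the 5 libraries from E4.5 to E5.5, against 52.3, 135, 91.8, 67.2 and 68.5 CPM in Cdh5-negative trophoblast. Among these libraries E4.75 thus had the most Cdx2 in both groups, but the limit of 2 Cdh5 UMIs was applied to cells of unlike depth. Median depths of Cdh5-positive cells were 15229, 47806.5, 25986.5, 24150 and 8148 UMIs from E4.5 to E5.5. The part of depth in the differences between stages was not tested. In Cdh5-positive cells of E4.5 the Cdx2 value rested on 2 UMIs. Elf5 was 208, 269, 270, 248 and 184 CPM in Cdh5-positive cells, against 288, 308, 323, 319 and 282 CPM in Cdh5-negative cells, and the ratio was under 2-fold at every stage. Eomes was 330, 382, 183, 143 and 105 CPM in Cdh5-positive and 414, 450, 343, 330 and 244 CPM in Cdh5-negative cells. Its log2 ratio was −0.23 at E4.75 and −1.15 at E5.25, and the difference between the stages was not tested. Bmp4 likewise stood at 88.7, 85.8, 17.9, 10.0 and 8.97 CPM in Cdh5-positive and 186, 129, 111, 88.7 and 71.0 CPM in Cdh5-negative cells. Prl3d1 was 125, 61.0, 641, 1047 and 608 CPM in Cdh5-positive cells, against 0, 0.156, 0.610, 0.983 and 17.4 CPM in Cdh5-negative cells. E4.75 thus had the least Prl3d1 among these Cdh5-positive groups, which differ in depth as given above.

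**Figure D5:**
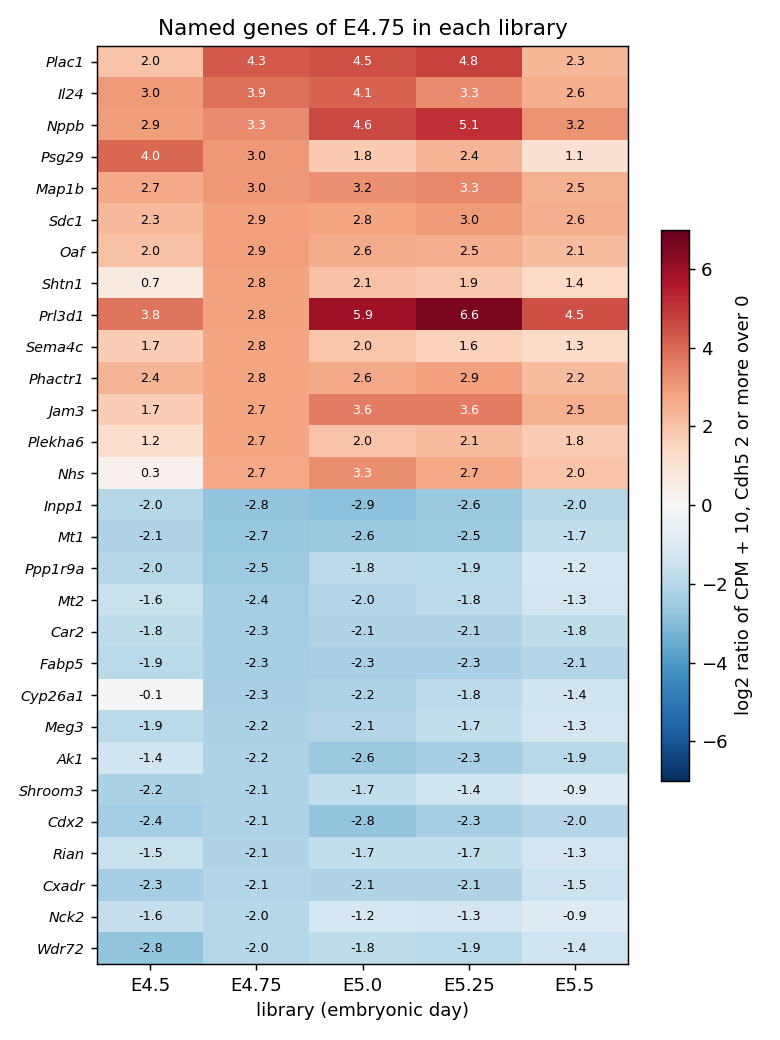
Log2 ratio of CPM + 10 (colour, number in each field), Cdh5-positive over Cdh5-negative trophoblast, for 29 of the 30 named genes of E4.75 (rows) in the libraries E4.5 to E5.5 (columns). Every field of the 14 upper genes is above 0 and every field of the 15 lower genes is below 0, with the smallest at E4.5 in Cyp26a1 and Nhs.

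In GRCm38 (GENCODE M21) Cdh5 (ENSMUSG00000031871) lies on chromosome 8 from 104101625 to 104144511, Cdx2 (ENSMUSG00000029646) on chromosome 5 from 147300805 to 147307270, Elf5 (ENSMUSG00000027186) on chromosome 2 from 103411688 to 103450989 and Plac1 (ENSMUSG00000061082) on chromosome X from 53069995 to 53240111. Hand1 (ENSMUSG00000037335) lies on chromosome 11 from 57828705 to 57832818 and Gata2 (ENSMUSG00000015053) on chromosome 6 from 88193891 to 88207032. All 6 are protein-coding genes, and 3' counting assigns UMIs to the whole gene, so isoforms are not told apart.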

How the data were processed

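Raw UMI counts, 1 integer for each gene in each barcode, were deposited by the authors as Cell Ranger matrices (version 7.1.0 per the file headers). Builds listed in the submitters' processing notes are mm10, GRCm38 and hg38. What hg38 was used for, the annotation release and the cell calling are not stated there. Each of the 6 libraries has 32285 genes. Within E4.75, counts were summed over the cells of a group and scaled to CPM. Log2 ratios add 10 CPM, which understates the change of low genes, and a gene counts as called at a plain CPM ratio of 2 and at least 10 CPM in either group. No p-value is given, since cells of 1 library are not replicates. Doublets were not removed. Scrublet (scanpy 1.11.5), set to mark the 52 cells of the library with the highest scores (2.04%), marked 0 cells of either group.

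The text names the 15 genes with the highest and the 15 with the lowest log2 ratio at 50 CPM or more and 2-fold, with a UMI in 20% of the higher group's cells and at least 0.2 of the CPM of the epiblast-scored and of the endoderm-scored cells. Mitochondrial, ribosomal, haemoglobin, unnamed and rule genes were left out. Members of 23 gene lists were named beside them. Counts cover all members, but 1 of the 30 named genes and some list members are not reported here. The cells and lists were chosen with earlier results of these data known. Thinning, depth limits, other Cdh5 and trophoblast limits, scalings and minimum levels were tried as alternatives, and the calculations were tested on simulated data. Python 3.11.15, numpy 2.4.6, scipy 1.17.1 and pandas 2.3.3 were used.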

Additional observations from a re-analysis of the deposited data

Results flagged for a closer look

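For this comparison the cells that stand apart were left out of the Cdh5-negative group in every library. So compared, 4 genes reached 50 CPM and were at least 2-fold higher in Cdh5-positive than in Cdh5-negative trophoblast at E4.75. In another library these genes lay at least 2-fold the other way. The differences between the stages were not tested. BC053393 was 129 CPM in Cdh5-positive and 51.1 CPM in Cdh5-negative cells at E4.75, against 79.2 and 539 CPM at E4.5, where its log2 ratio was −2.62. The nuclear RNA Neat1 was 63.3 and 26.3 CPM at E4.75 and 33.8 and 70.0 CPM at E4.5, a log2 ratio of −0.87. The secreted metalloprotease Adamts9 was 88.7 and 27.1 CPM at E4.75, 6.64 and 25.8 CPM at E5.25 (−1.11) and 7.74 and 20.6 CPM at E5.5 (−0.79). Aif1l was 73.5 and 31.4 CPM at E4.75 and 13.2 and 36.7 CPM at E5.5 (−1.01). E4.5 and E5.5 cells were filtered at 20 µm, and those of E4.75 and E5.25 were not.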

How the results depend on the processing

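The log2 ratio of Cdx2, −2.15, kept its sign under every alternative, from −2.82 to −1.78, and that of Elf5, −0.19, from −0.22 to −0.021. Cdx2 was −1.78 with Cdh5 at 1 or more UMIs, −2.36 at 4 or more, −1.78 with a trophoblast sum of at least 10, −2.46 when cells were thinned, −2.52 when Cdh5 was also called after thinning, −2.82 in cells of 20000 to 60000 UMIs, −2.52 with 1 CPM added and −1.94 without cells that had a Prl3d1 UMI. Elf5 was −0.10 when thinned and −0.021 with each cell weighted equally. The genes lower in Cdh5-positive cells, 486 in the report, numbered 1092 with a trophoblast sum of at least 10, which left 118 and 20 cells, 857 with cells weighted equally and 253 at a minimum of 25 CPM. With no minimum 3957 were higher and 3293 lower. The cause was not tested, except that the CPM limits change which genes are counted. Named genes gave 493 values over the alternatives, of which 0 changed sign, 144 moved beyond their counting interval and, apart from Prl3d1 without its own cells, 5 fell under 1 in size. These were Shtn1, 0.83 with a trophoblast sum of at least 10, against 2.83 in the report, and Cyp26a1, −2.27 in the report, which was −0.94 thinned, −0.51 with Cdh5 called after thinning, −0.76 in cells of 20000 to 60000 UMIs and −0.82 without the 15 cells that stand apart. Some of the 493 values could not move. Leaving out the highest Scrublet scores removed 0 cells of either group, and a CPM minimum does not change a single gene's log2 ratio. The named genes were also chosen by their ratios in these same cells, so the counts do not measure stability. List medians gave 390 values, 30 of them of the opposite sign. Leaving out the 15 cells that stand apart was chosen after seeing the data. These cells had a median of 6532 UMIs and at most 11139. Thinning thus leaves out most of them as well, and the range of 20000 to 60000 UMIs leaves out all. No paired analysis was possible because each stage is 1 library and both groups come from it. Counts of a few UMIs, as for Prl3d1 or Thbd in Cdh5-negative cells, limit what can be said of them.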

Other observations

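Of 21 S phase and endocycle genes at 10 CPM, 0 were called higher and 0 lower in Cdh5-positive cells at a median log2 ratio of −0.06, where 5.67% and 5.99% of all genes were called, and of 20 G2 and M phase genes again 0 and 0, at 0.05. Cyclin E1 (Ccne1), which drives entry into S phase, was 258 CPM in Cdh5-positive and 157 CPM in Cdh5-negative cells, the ribonucleotide reductase subunit Rrm2 162 and 303 CPM, and the mitotic kinase Cdk1 184 and 199 CPM. The CDK inhibitor Cdkn1c, known from giant cell formation, was 57.6 and 50.6 CPM, and Cdkn1a 3.39 and 5.47 CPM. Of 18 genes of glucose uptake and glycolysis, 2 were higher and 1 lower, against the same shares of all genes. The phosphofructokinase Pfkp was 220 and 67.8 CPM, the kinase Pdk1 13.7 and 6.09 CPM and the hexokinase Hk1 9.61 and 62.8 CPM, while Hk2 was 408 and 285 CPM. Among 14 imprinted genes, 2 were higher and 3 lower, against 5.67% and 5.99% of all genes. Peg10 (43.7 and 135 CPM), Mest (7.87 and 38.9 CPM) and Meg3 were lower, Ascl2 and Snrpn (43.0 and 20.5 CPM) were higher, and H19 was 628 and 577 CPM. Of the hypoxia genes, Ndrg1 was 71.0 and 202 CPM, and 151 CPM in the Cdh5-negative group without the 15 cells that stand apart. The protease cathepsin B (Ctsb) was 168 and 264 CPM, but 69.5 CPM in the Cdh5-negative group without those cells, so that its ratio turned to the higher side.

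The ETS motif CCGGAA, searched on both strands around the start sites, was in 11.4% of the promoters of genes called higher (40 of 352) and 15.8% of those called lower (61 of 387), against 33.4% of those of all measured genes (2190 of 6549). The GATA motif AGATAA was in 5.97%, 5.94% and 5.37% of the same 3 sets. These are shares of matching letters and were not tested.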
